A study of Homo sapiens with 6 samples.

Results

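Transcripts of 40 lysosome and autophagy genes were followed in AsPC-1 cells after knockdown of HMOX1. The genes were chosen by name, from lysosomal enzymes, lysosomal membrane proteins, the TFEB family of transcription factors and the autophagy machinery, and all 40 were found among the 20263 genes of the count table. AsPC-1 is a human pancreatic adenocarcinoma cell line, and HMOX1 is the gene of heme oxygenase-1, a stress-induced enzyme of heme breakdown. The cells were transfected with HMOX1si1, with HMOX1si2 (both siRNAs against HMOX1) or with siControl, a negative control siRNA, and all groups received the jetPRIME transfection reagent. Each of the 3 groups held 2 libraries of messenger RNA from this single line. The labels give no time after transfection, and nothing in them says that the libraries of a group came from separate cultures, so the p-values cover just the variation among these 6 libraries, which may be technical.

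Lysosomes are acidic organelles in which hydrolases break down proteins, glycans, lipids and nucleic acids. Autophagy delivers cytoplasmic cargo to them: a kinase complex and a lipid kinase complex start a double membrane, ubiquitin-like conjugation attaches ATG8 proteins (LC3 and GABARAP) to it, and receptors such as p62 tether the cargo. TFEB, TFE3 and MITF are transcription factors that bind an E-box element in the promoters of many of these genes, and pancreatic adenocarcinoma is known for high basal autophagy and lysosome activity. The receptor p62, encoded by SQSTM1, also binds KEAP1, the protein that restrains NRF2, and NRF2 is an activator of HMOX1.

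The promoter windows that hold the core of this E-box are shown first, because they show which of the genes carry the letters that TFEB-family factors are known to read. RefSeq promoter windows (GRCh38.p14, from 250 bases before to 50 bases after the annotated start) were matched for 34 of the 40 genes, and LAMP2, CTSB, HEXA, PSAP, ATP6V1H and ATP6V1A had no entry. Bases after the start were found in a GENCODE 29 transcript of the same gene for 29 of the 34, and not for ULK1, ATG7, NBR1, OPTN and CTSZ, none of which holds the core described next. The core CACGTG, which reads the same on both strands, was in the windows of 6 genes. In the following 30-base stretches, written 5′ to 3′ on the strand of the gene, capitals mark the core, and the position is that of its centre relative to the start.
GAA at −74, chr17:80101493-80101522, plus strand: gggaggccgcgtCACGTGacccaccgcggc
GAA at −29, chr17:80101538-80101567, plus strand: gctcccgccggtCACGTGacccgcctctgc
MCOLN1 at −39, chr19:7522571-7522600, plus strand: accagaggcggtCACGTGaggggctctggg
MCOLN1 at −12, chr19:7522598-7522627, plus strand: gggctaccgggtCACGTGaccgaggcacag
CTSA at −40, chr20:45891281-45891310, plus strand: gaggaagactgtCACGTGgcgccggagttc
CTSA at −23, chr20:45891298-45891327, plus strand: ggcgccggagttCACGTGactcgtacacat
LAMP1 at −26, chr13:113297199-113297228, plus strand: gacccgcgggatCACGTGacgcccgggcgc
ATP6V0D1 at −57, chr16:67481199-67481228, minus strand: cccccttatggtCACGTGaggcgcttgcgc
CTSD at −45, chr11:1763957-1763986, minus strand: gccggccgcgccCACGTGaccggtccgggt
LAMP1 had 6 matches in all, of which 1 is printed. The core was present in 17.6% of the members' windows, 10.0% of those of tested genes and 7.43% of all 27305 promoter windows. Among the 29 windows found in a transcript it was present in 20.7%. The longer form TCACGTGA, which contains the core, was in 5 members (14.7%), 1.87% of the windows of tested genes and 1.04% of all windows. Of elements read by other factors, TGACNNNGC (antioxidant response element, either strand) was in 26.5% of the members' windows, 14.9% of those of tested genes and 13.6% of all windows. In GAA and LAMP1 the only match of TGACNNNGC shares letters with a CACGTG core, so its share is not independent of that of the core. TGACTCA (AP-1, either strand) was in 2.94% of the members' windows (TFE3 alone), 3.19% of those of tested genes and 4.92% of all windows.

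Total counts lay between 36144330 and 45068660 per library. HMOX1 itself had 102 and 112 counts with HMOX1si1 and 55 and 53 with HMOX1si2, against 328 and 378 with siControl, so that no knockdown library reached either control. The log2 fold change of HMOX1 was −1.75 with HMOX1si1 (SE 0.16, edgeR adjusted p = 0.00618) and −2.85 with HMOX1si2 (SE 0.17, edgeR adjusted p = 0.00951). Without siControl replicate 1 the edgeR adjusted p was 0.0451 with HMOX1si1 and 0.0778 with HMOX1si2, and without siControl replicate 2 it was 0.0637 with HMOX1si1 and 0.0960 with HMOX1si2. All 8 epithelial markers examined (EPCAM, CDH1, KRT7, KRT8, KRT18, KRT19, MUC1 and CEACAM6) were present, with a summed level of 10393 to 10496 CPM with HMOX1si1, 14164 to 14272 with HMOX1si2 and 13984 to 15815 with siControl. Summed levels were at most 1.71 CPM for 4 endothelial and 0.383 CPM for 5 acinar and endocrine markers, and CD3E, CPA1 and INS were at 0 in every library. The 6 fibroblast markers summed to 91.2 to 95.4 CPM with HMOX1si1, 79.0 to 87.0 with HMOX1si2 and 119 to 125 with siControl, with LUM at up to 121 CPM and the collagen genes COL1A2 and COL3A1 at no more than 0.32 CPM. The 5 leukocyte markers summed to 44.1 to 45.3 CPM with HMOX1si1, 32.5 to 36.8 with HMOX1si2 and 48.6 to 63.4 with siControl, with LYZ at up to 53.2 CPM. Of these markers edgeR called LUM lower on average (log2 fold change −0.50, adjusted p = 0.0244) and with HMOX1si2, LYZ lower with HMOX1si2 (−0.90, adjusted p = 0.0403) and CD14 lower with HMOX1si1 (−0.68, adjusted p = 0.0325). The keratin genes KRT8, KRT18 and KRT19 were lower with HMOX1si1 (−0.68, −0.47 and −0.73, edgeR adjusted p = 0.0155, 0.0461 and 0.0112), and KRT8 and KRT19 also on average. No other epithelial marker was called. CDH1 went the other way, with all 4 knockdown libraries above both controls (0.47 on average, edgeR adjusted p = 0.0849). On average CEACAM6 had 0.12, EPCAM −0.06, KRT7 −0.23 and MUC1 −0.04. The part of these marker differences in the results was not tested.

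Levels of the 40 genes differed widely. They are compared here as CPM (counts scaled to a common library size after TMM) per kilobase of annotated exon, a scale on which long or rarely used exons lower the value. In siControl libraries PSAP, the precursor of the saposins that help enzymes degrade sphingolipids, had the highest mean level (316 CPM per kilobase), followed by SQSTM1 (158) and the carboxypeptidase gene CTSZ (156), whose libraries overlapped. CTSD (103), CTSA (99.0) and CTSB (74.4) came next, and the libraries of CTSD and CTSA overlapped too. CTSD shares 41.7% of its annotated exonic bases with ENSG00000250644, so its counts and its place in this order are uncertain. PLA2G15 was the lowest of the tested genes in siControl, at 1.80 CPM per kilobase with HMOX1si1, 6.89 with HMOX1si2 and 1.56 with siControl. MITF stood apart, with 10 and 5 counts with HMOX1si1, 4 and 2 with HMOX1si2 and 2 and 6 with siControl, and it did not pass the expression filter. The other 39 genes were tested and had between 264 and 93114 counts in a library.

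**Figure D1:**
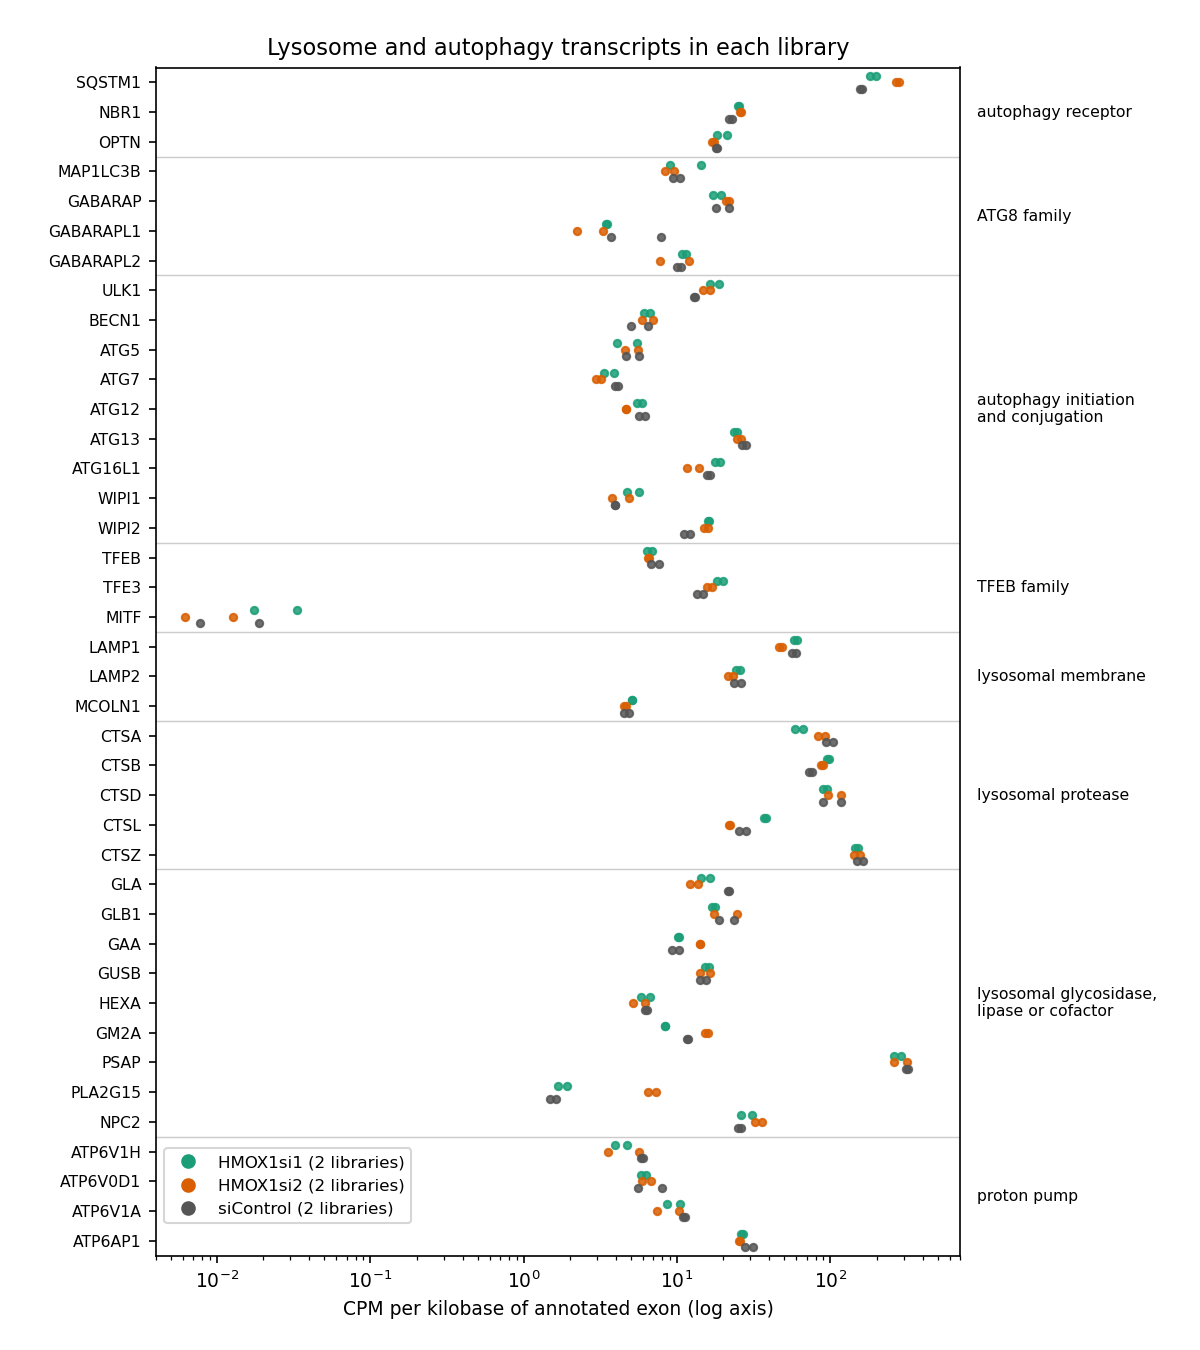
CPM per kilobase of annotated exon (log axis) of each of the 40 genes, grouped by role; every point is 1 library, with 2 each for HMOX1si1, HMOX1si2 and siControl. PSAP lies highest and MITF far below the rest, and PLA2G15 with HMOX1si2 lies clear of its other libraries.

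The comparison asks whether transcripts of this organelle system change when HMOX1 is knocked down. Most did not pass the test: 30 of the 39 tested genes were called in none of 4 contrasts, namely both siRNAs averaged against siControl, HMOX1si1 and HMOX1si2 each against siControl, and HMOX1si2 against HMOX1si1. The same count was not made over all tested genes, so it does not show that the members were more stable than others. In each single contrast the share of members called was above that of all tested genes, a difference that was not tested. On average 3 genes rose (SQSTM1, WIPI2 and PLA2G15) and 2 fell (CTSA and GLA) by edgeR's quasi-likelihood test at an adjusted p under 0.05, which is 12.8% of the members, beside 10.1% of all 13769 tested genes (5.16% higher and 4.93% lower). With HMOX1si1 WIPI2, CTSB and CTSL rose and CTSA, GLA and GM2A fell (15.4%, beside 10.0% of all tested genes, 5.02% higher and 5.01% lower). With HMOX1si2 SQSTM1, GAA, GM2A and PLA2G15 rose and GLA fell (12.8%, beside 5.73%, 3.06% higher and 2.67% lower). HMOX1si2 was higher than HMOX1si1 for SQSTM1, GM2A and PLA2G15 and lower for CTSL (10.3%, beside 3.62%, 2.14% higher and 1.49% lower). The contrasts against siControl share its libraries, so they are not independent of each other. The median log2 fold change on average was −0.059 over the members and −0.004 over all tested genes. In bulk samples a lower level in fewer cells and less RNA in every cell cannot be told apart.

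**Figure D2:**
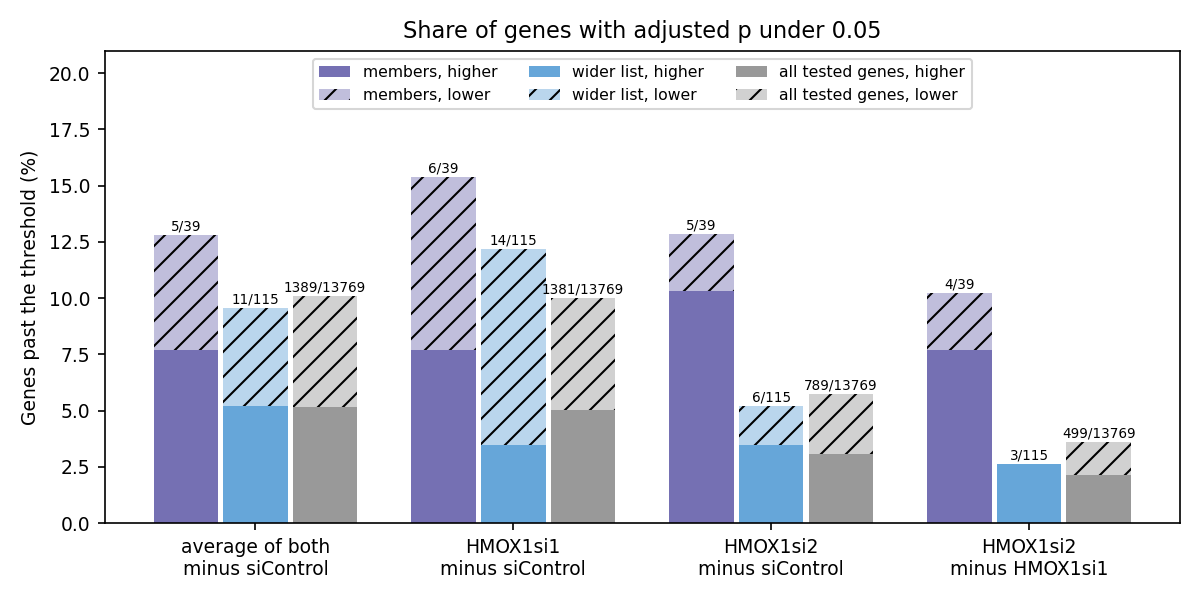
Share of genes past the threshold (edgeR adjusted p under 0.05) in each contrast, in percent, for the 39 tested members, the 115 tested genes of a wider list and all 13769 tested genes; solid bars are higher, hatched bars lower. The members' bar stands at 12.8% on average of both siRNAs, beside 10.1% of all tested genes.

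All 4 knockdown libraries lay above both controls for 7 members (17.9%) and below both for 8 (20.5%), beside 18.7% above and 18.2% below among all tested genes. With HMOX1si1 12 members (30.8%) lay above and 11 (28.2%) below, beside 31.9% above and 31.9% below among all. With HMOX1si2 10 members (25.6%) lay above and 16 (41.0%) below, beside 28.9% above and 28.1% below. Between the siRNAs 10 members (25.6%) were higher in both HMOX1si2 libraries and 13 (33.3%) lower, beside 25.3% and 26.0% of all tested genes. The members' shares lay furthest from those of all genes for HMOX1si2 below siControl, a difference that was not tested. Each of the 16 calls that the members had against siControl was lost without siControl replicate 1 (edgeR adjusted p from 0.0641 to 0.149) and without siControl replicate 2 (from 0.0960 to 0.236). In both cases edgeR called 0 of all tested genes on average, with 3459 and 2562 at an unadjusted p under 0.05.

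**Figure D3:**
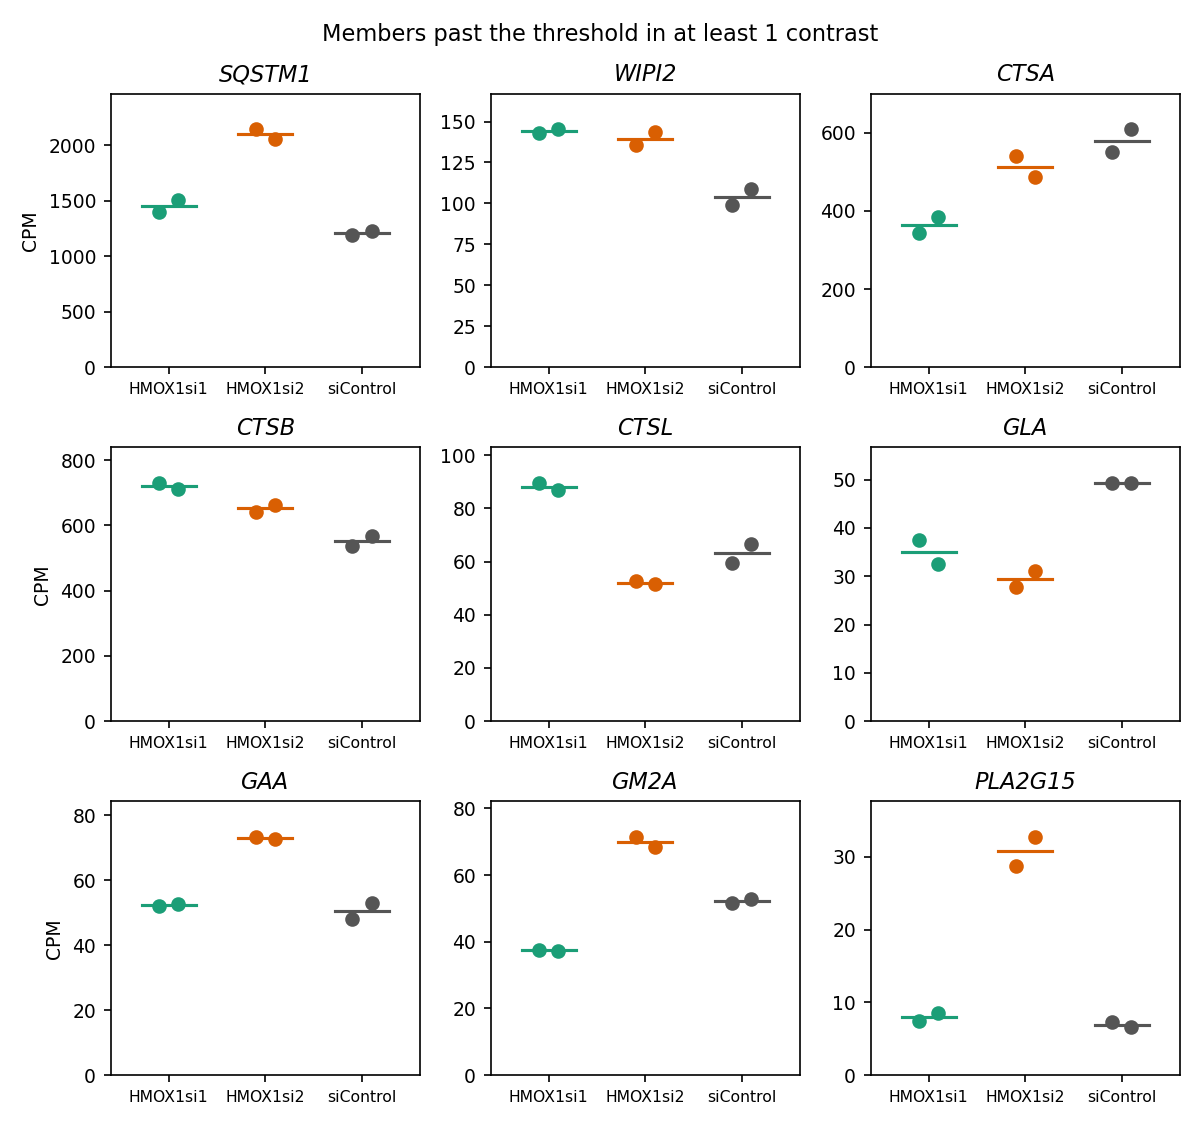
CPM (linear axes from 0) of the 9 genes called in at least 1 contrast; points are the 2 libraries of each group and the line is their mean. SQSTM1, GAA, GM2A and PLA2G15 are highest with HMOX1si2, CTSL is highest with HMOX1si1, and GLA is below both controls in all 4 knockdown libraries.

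Among autophagy receptors, SQSTM1 rose and the other 2 did not pass. SQSTM1 (ENSG00000161011, chr5:179806398-179838078, plus strand in GRCh38 as annotated by GENCODE 29) had 1396 and 1509 CPM with HMOX1si1 and 2146 and 2057 CPM with HMOX1si2, against 1192 and 1227 CPM with siControl. The 3 groups did not overlap, with HMOX1si2 highest and siControl lowest. Its log2 fold change was 0.80 with HMOX1si2 (1.74-fold, SE 0.09, edgeR adjusted p = 0.0176), 0.26 with HMOX1si1 (SE 0.09, edgeR adjusted p = 0.101) and 0.53 on average (SE 0.08, edgeR adjusted p = 0.0188). NBR1, a receptor related in domain structure to p62, had 209 and 212 CPM with HMOX1si1 and 217 and 220 CPM with HMOX1si2, against 192 and 182 CPM with siControl. All 4 knockdown libraries of NBR1 were above the controls, by a log2 fold change of 0.20 on average (SE 0.07, edgeR adjusted p = 0.132). OPTN, optineurin, a receptor for damaged mitochondria and bacteria, had a log2 fold change of 0.02 on average (SE 0.09, edgeR adjusted p = 0.876). In SQSTM1 22% of the annotated exonic bases are shared with MGAT4B or MRNIP, whose log2 fold changes with HMOX1si2 were 0.28 (edgeR adjusted p = 0.123) and −0.22 (edgeR adjusted p = 0.341). Beside the losses without a control library, SQSTM1 missed the threshold with HMOX1si2 without HMOX1si2 replicate 1 (edgeR adjusted p = 0.0659), and on average without HMOX1si1 replicates 1 and 2 (0.0585 and 0.0737).

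None of the 4 ATG8-family genes passed in any contrast (edgeR, unadjusted p under 0.05 for GABARAPL1 with HMOX1si2 and on average). These encode the ubiquitin-like proteins that are attached to the growing membrane and hold the receptors. GABARAPL1 had 14.1 and 14.2 CPM with HMOX1si1 and 9.08 and 13.4 CPM with HMOX1si2, against 32.1 and 15.2 CPM with siControl. The control libraries of GABARAPL1 are further apart than siControl replicate 2 is from any knockdown library. Its log2 fold change was −0.91 on average (SE 0.30, edgeR adjusted p = 0.108), −0.28 without siControl replicate 1 and −1.34 without siControl replicate 2. MAP1LC3B, encoding LC3B, had 47.9 and 76.0 CPM with HMOX1si1 and 50.7 and 44.5 CPM with HMOX1si2, against 55.9 and 49.7 CPM with siControl, so the groups overlapped. GABARAP and GABARAPL2 had log2 fold changes on average of −0.01 and 0.03 (SE 0.11 and 0.18).

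Of the 9 genes of autophagy initiation and conjugation, WIPI2 rose and 8 did not pass. WIPI2 (ENSG00000157954, chr7:5190188-5233826, plus strand) encodes a phosphoinositide-binding protein that brings ATG16L1 to the forming membrane. It had 143 and 145 CPM with HMOX1si1 and 136 and 144 CPM with HMOX1si2, against 99.2 and 109 CPM with siControl. Every knockdown library of WIPI2 was above both controls, and the 2 siRNAs overlapped. The log2 fold change of WIPI2 was 0.45 on average (SE 0.08, edgeR adjusted p = 0.0303), 0.47 with HMOX1si1 (SE 0.09, edgeR adjusted p = 0.0344) and 0.42 with HMOX1si2 (SE 0.09, edgeR adjusted p = 0.0583). ULK1, the kinase that starts autophagy, had 124 and 142 CPM with HMOX1si1 and 125 and 113 CPM with HMOX1si2, against 98.8 and 99.8 CPM with siControl. ULK1 was thus above the controls in 4 of 4 knockdown libraries, and its log2 fold change of 0.34 on average (SE 0.09, edgeR adjusted p = 0.0730) did not pass. ATG16L1, the scaffold of the LC3-conjugating complex, had a log2 fold change of 0.20 with HMOX1si1 and −0.33 with HMOX1si2, and HMOX1si2 differed from HMOX1si1 by −0.53 (SE 0.12, edgeR adjusted p = 0.0684). BECN1 (a subunit of the lipid kinase complex), ATG13 (a partner of ULK1), ATG7 (the activating enzyme of both conjugation systems), ATG5, ATG12 and WIPI1 had log2 fold changes on average from −0.28 to 0.26. Of these, ATG7 (−0.28, edgeR adjusted p = 0.119) and ATG13 (−0.15, edgeR adjusted p = 0.247) were below both controls in 4 of 4 knockdown libraries. On average WIPI2 also missed the threshold without HMOX1si1 replicates 1 and 2 (edgeR adjusted p = 0.0858 and 0.103) and without HMOX1si2 replicate 1 (0.0542), and with HMOX1si1 without HMOX1si1 replicates 1 and 2 (0.138 and 0.190).

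Neither tested gene of the TFEB family passed in a contrast by edgeR. TFEB had 36.2 and 38.9 CPM with HMOX1si1 and 37.1 and 36.4 CPM with HMOX1si2, against 38.2 and 43.3 CPM with siControl. Its groups overlapped only for HMOX1si1, and the log2 fold change was −0.13 on average (SE 0.09, edgeR adjusted p = 0.348). TFE3 had 78.3 and 85.3 CPM with HMOX1si1 and 72.2 and 67.1 CPM with HMOX1si2, against 57.9 and 63.2 CPM with siControl. All 4 knockdown libraries of TFE3 were above the controls, those of HMOX1si1 most. The log2 fold change of TFE3 was 0.43 with HMOX1si1 (SE 0.10, edgeR adjusted p = 0.050, not called) and 0.20 with HMOX1si2 (SE 0.10, edgeR adjusted p = 0.262). These are transcript levels; the activity of TFEB and TFE3 is known to be set largely by phosphorylation and movement between cytoplasm and nucleus, which were not measured.

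The lysosomal membrane genes did not pass in any contrast. LAMP1, an abundant glycoprotein of the lysosomal membrane, had 347 and 333 CPM with HMOX1si1 and 265 and 279 CPM with HMOX1si2, against 323 and 342 CPM with siControl. HMOX1si2 was below both other groups for LAMP1, by −0.29 on the log2 scale against siControl (SE 0.09, edgeR adjusted p = 0.115), while the HMOX1si1 libraries overlapped the controls. LAMP2, its relative that also serves chaperone-mediated autophagy, had 142 and 133 CPM with HMOX1si1 and 119 and 127 CPM with HMOX1si2, against 143 and 131 CPM with siControl. MCOLN1, the cation channel that releases calcium from lysosomes, had a log2 fold change of 0.04 on average (SE 0.09, edgeR adjusted p = 0.796) and holds 2 of the core elements shown above.

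Of the 5 lysosomal proteases, CTSB and CTSL rose and CTSA fell with HMOX1si1, and none passed with HMOX1si2. CTSA (ENSG00000064601, chr20:45890144-45898820, plus strand), a carboxypeptidase that also protects lysosomal beta-galactosidase and neuraminidase, had 344 and 385 CPM with HMOX1si1 and 540 and 487 CPM with HMOX1si2, against 550 and 609 CPM with siControl. CTSA was lowest in the HMOX1si1 libraries, well below all others. Its log2 fold change was −0.67 with HMOX1si1 (SE 0.11, edgeR adjusted p = 0.0227), −0.17 with HMOX1si2 (SE 0.11, edgeR adjusted p = 0.359) and −0.42 on average (SE 0.09, edgeR adjusted p = 0.0455). The cysteine protease gene CTSB (ENSG00000164733, chr8:11842524-11869448, minus strand) had 729 and 710 CPM with HMOX1si1 and 643 and 664 CPM with HMOX1si2, against 538 and 567 CPM with siControl. The 3 groups of CTSB did not overlap, and its log2 fold change was 0.38 with HMOX1si1 (SE 0.08, edgeR adjusted p = 0.0445) and 0.24 with HMOX1si2 (SE 0.08, edgeR adjusted p = 0.148). CTSL (ENSG00000135047, chr9:87725519-87731393, plus strand), another cysteine protease gene, had 89.5 and 86.9 CPM with HMOX1si1 and 52.6 and 51.6 CPM with HMOX1si2, against 59.6 and 66.6 CPM with siControl. The siRNAs thus placed CTSL on opposite sides of the controls: its log2 fold change was 0.48 with HMOX1si1 (SE 0.10, edgeR adjusted p = 0.0331) and −0.28 with HMOX1si2 (SE 0.10, edgeR adjusted p = 0.144). CTSD, the main aspartic protease of lysosomes, and CTSZ had log2 fold changes on average of −0.06 (SE 0.14) and −0.07 (SE 0.09). In CTSA 21.1% of exonic bases are shared with NEURL2 or PLTP, and PLTP had a log2 fold change of 0.24 with HMOX1si1 (edgeR adjusted p = 0.201). The calls of CTSA, CTSB and CTSL with HMOX1si1 were also lost without HMOX1si1 replicates 1 and 2 (edgeR adjusted p from 0.100 to 0.212), and that of CTSA on average whichever library was left out (0.0658 to 0.236). CTSB was also lost without HMOX1si2 replicate 1 (0.0572) or 2 (0.0575), with library totals (0.0503) and without a filter (0.0552).

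Enzymes and cofactors of glycan and lipid breakdown held the largest change among the members. PLA2G15 (ENSG00000103066, chr16:68245304-68261062, plus strand), the lysosomal phospholipase A2, had 7.49 and 8.55 CPM with HMOX1si1 and 28.8 and 32.7 CPM with HMOX1si2, against 7.30 and 6.60 CPM with siControl. The HMOX1si2 libraries of PLA2G15 stood far above the other 4, which lay close together. Its log2 fold change was 2.15 with HMOX1si2 (4.43-fold, SE 0.14, edgeR adjusted p = 0.00951), 0.21 with HMOX1si1 (SE 0.14, edgeR adjusted p = 0.357) and 1.18 on average (SE 0.13, edgeR adjusted p = 0.0110). GLA (ENSG00000102393, chrX:101397803-101408012, minus strand), alpha-galactosidase A, had 37.5 and 32.5 CPM with HMOX1si1 and 27.7 and 31.1 CPM with HMOX1si2, against 49.2 CPM in both siControl libraries. GLA was the sole member called lower with each siRNA. Its log2 fold change was −0.49 with HMOX1si1 (SE 0.11, edgeR adjusted p = 0.0493), −0.74 with HMOX1si2 (SE 0.11, edgeR adjusted p = 0.0280) and −0.62 on average (SE 0.10, edgeR adjusted p = 0.0221). Leaving out any 1 library ended the call of GLA with HMOX1si1 (edgeR adjusted p from 0.0522 to 0.253), as did library totals (0.0758), and likewise its call with HMOX1si2 (0.0517 to 0.147). On average GLA also missed the threshold without HMOX1si1 replicates 1 and 2 (0.0510 and 0.0703).

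GM2A and GAA were higher with HMOX1si2. GM2A (ENSG00000196743, chr5:151212150-151270440, plus strand), the activator that presents the ganglioside GM2 to hexosaminidase A, had 37.5 and 37.3 CPM with HMOX1si1 and 71.4 and 68.4 CPM with HMOX1si2, against 51.7 and 52.9 CPM with siControl. GM2A was the only member called in opposite directions by the 2 siRNAs: its log2 fold change was −0.48 with HMOX1si1 (SE 0.09, edgeR adjusted p = 0.0266) and 0.42 with HMOX1si2 (SE 0.09, edgeR adjusted p = 0.0484). On average these came to −0.03 (edgeR adjusted p = 0.791). GAA (ENSG00000171298, chr17:80101556-80119879, plus strand), the acid alpha-glucosidase that degrades lysosomal glycogen, had 52.2 and 52.7 CPM with HMOX1si1 and 73.3 and 72.7 CPM with HMOX1si2, against 48.1 and 53.1 CPM with siControl. The HMOX1si1 libraries of GAA lay within the range of the controls, and its log2 fold change was 0.53 with HMOX1si2 (SE 0.09, edgeR adjusted p = 0.0368) and 0.05 with HMOX1si1 (SE 0.09, edgeR adjusted p = 0.735). NPC2, the soluble cholesterol carrier, had a log2 fold change of 0.41 with HMOX1si2 (SE 0.12, edgeR adjusted p = 0.0998). HEXA (the alpha chain of hexosaminidase A), GLB1 (beta-galactosidase), GUSB (beta-glucuronidase) and PSAP had log2 fold changes on average between −0.17 and 0.07. Leaving out any 1 library ended the calls of GM2A (edgeR adjusted p from 0.0878 to 0.178) and GAA (0.0769 to 0.131) with HMOX1si2. That of GM2A was also lost without a filter (0.0570), and that of GM2A with HMOX1si1 was lost without HMOX1si1 replicates 1 and 2 (0.129 and 0.175).

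The 4 genes of the proton pump that acidifies lysosomes all had negative log2 fold changes on average, and none passed (edgeR, 0 called, with 0 at an unadjusted p under 0.05 among these 4 in any contrast against siControl). ATP6V1H, a regulatory subunit of the cytosolic sector, had 24.1 and 19.9 CPM with HMOX1si1 and 18.1 and 28.6 CPM with HMOX1si2, against 30.6 and 29.7 CPM with siControl, or −0.41 on the log2 scale on average (SE 0.19, edgeR adjusted p = 0.204). ATP6AP1, an accessory subunit, had 128 and 131 CPM with HMOX1si1 and 126 and 123 CPM with HMOX1si2, against 135 and 154 CPM with siControl, or −0.18 on the log2 scale on average (SE 0.09, edgeR adjusted p = 0.202). ATP6V1H, ATP6AP1 and ATP6V1A were below both controls in 4 of 4 knockdown libraries, and none of these differences passed the test. Among all 13769 tested genes 18.2% lay below both controls in this way, and 6959 had a negative log2 fold change on average. Of 12 further pump genes tested in the wider list described below, edgeR called 1 higher and 1 lower on average. ATP6V1A, the catalytic subunit, and ATP6V0D1, of the membrane sector, had log2 fold changes on average of −0.27 and −0.13 (SE 0.15 each).

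The difference between the siRNAs was tested directly, and it passed for 4 of the 39 members. PLA2G15 was higher with HMOX1si2 (28.8 and 32.7 CPM) than with HMOX1si1 (7.49 and 8.55 CPM), a log2 difference of 1.94 (SE 0.14, edgeR adjusted p = 0.00678). GM2A was also higher with HMOX1si2, by 0.90 (SE 0.09, edgeR adjusted p = 0.0108), and so was SQSTM1, by 0.53 (SE 0.09, edgeR adjusted p = 0.0331). CTSL was lower with HMOX1si2, by a log2 difference of −0.76 (SE 0.10, edgeR adjusted p = 0.0178). GAA (0.48, SE 0.09, edgeR adjusted p = 0.0537), ATG16L1 (−0.53, edgeR adjusted p = 0.0684) and CTSA (0.49, SE 0.11, edgeR adjusted p = 0.0706) lay just outside the threshold. HMOX1 itself was lower with HMOX1si2 than with HMOX1si1 (log2 difference −1.10, SE 0.17, edgeR adjusted p = 0.0284, and 0.0789 to 0.141 when any 1 library was left out), so that depth of knockdown and identity of the siRNA cannot be told apart in this contrast. Without HMOX1si1 replicate 1 none of the 4 was called (edgeR adjusted p of 0.0509 for PLA2G15, 0.0873 for GM2A, 0.110 for CTSL and 0.229 for SQSTM1), and without HMOX1si1 replicate 2 PLA2G15 alone was called (0.0483, with GM2A at 0.0914 and CTSL at 0.108). CTSL was also lost without HMOX1si2 replicates 1 and 2 (0.0714 and 0.0686), and SQSTM1 whichever library was left out (0.0719 to 0.229).

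**Figure D4:**
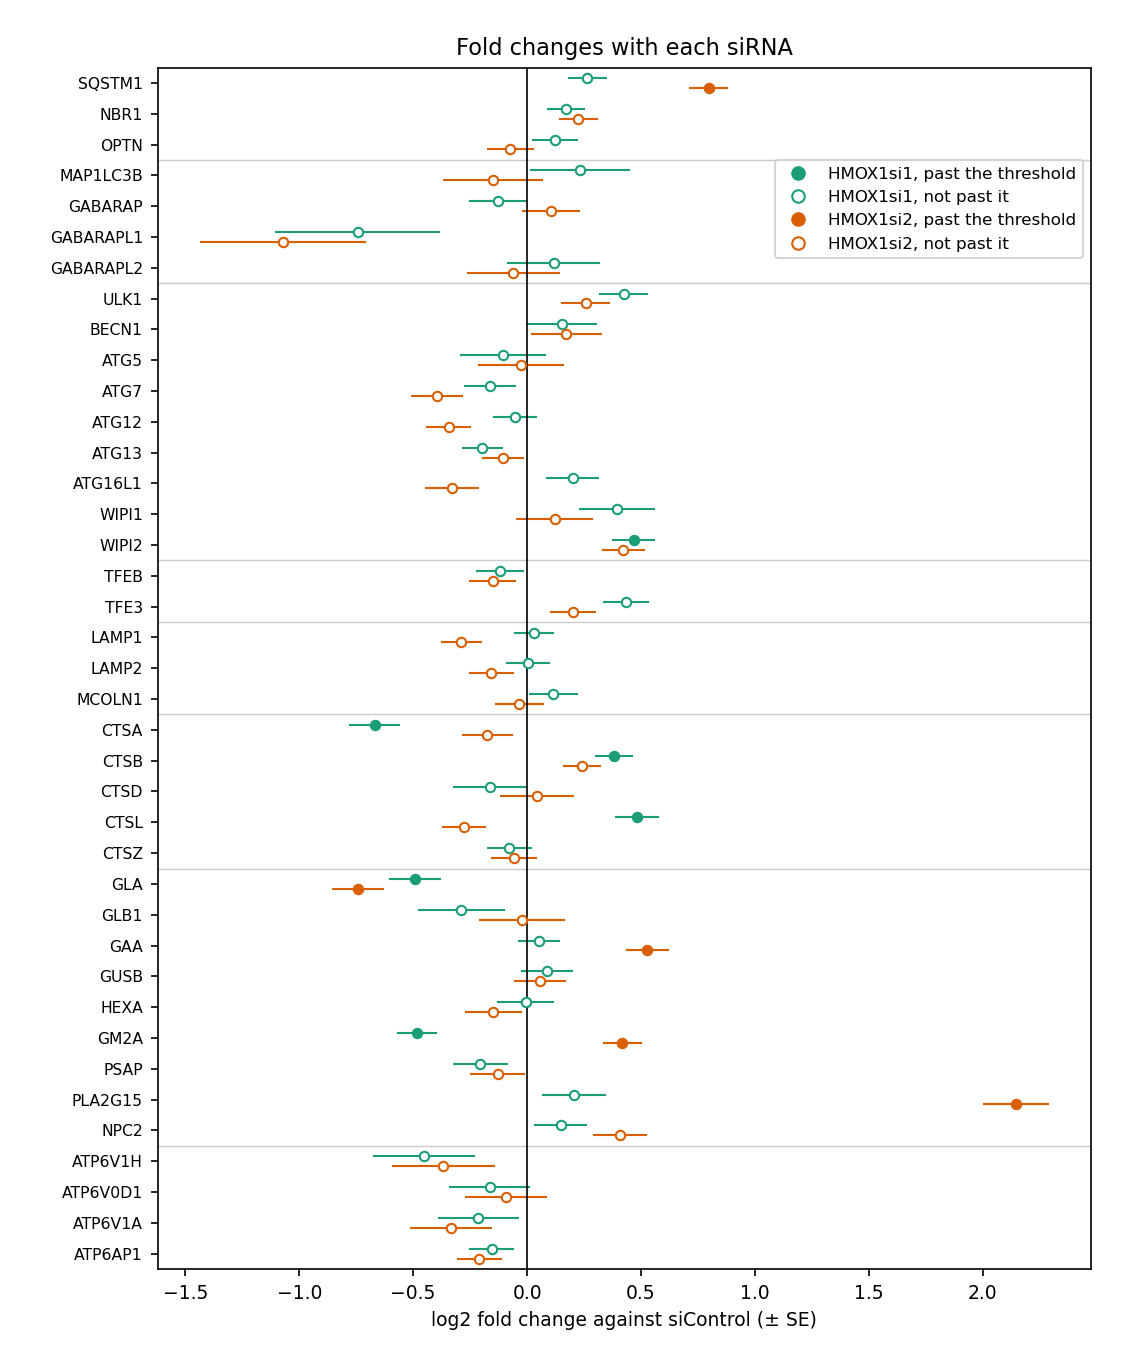
Log2 fold change against siControl (± SE) of the 39 tested genes with HMOX1si1 and HMOX1si2, in the order of roles used above (receptors, ATG8 family, initiation and conjugation, TFEB family, membrane, proteases, glycan and lipid enzymes with their cofactors, proton pump); filled points are past the threshold. PLA2G15 reaches 2.15 with HMOX1si2, and 11 of the 39 genes, GM2A and CTSL among them, lie on opposite sides of 0 with the 2 siRNAs. Some of the 11 lie near 0, such as LAMP2 (0.003 with HMOX1si1 and −0.16 with HMOX1si2), and the share over all tested genes was not counted.

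The 6 genes with the core E-box in the windows printed above gave mixed values. Of them GAA rose with HMOX1si2 and CTSA fell with HMOX1si1, while MCOLN1, LAMP1, ATP6V0D1 and CTSD were called in no contrast. Their median log2 fold change was −0.065 with HMOX1si1 and −0.063 with HMOX1si2. Over the 27 tested members whose windows lack the core it was 0.117 with HMOX1si1 and −0.025 with HMOX1si2. PLA2G15, SQSTM1 and GM2A, which rose with HMOX1si2, are among those 27. A match is a description of letters in a window of fixed length and not of binding.

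A wider list of 116 further lysosome and autophagy genes was examined beside the members, and 115 of them were tested, while TFEC, a relative of TFEB, was at 0 in every library. On average 6 rose and 5 fell (9.57%, beside 10.1% of all tested genes), with HMOX1si1 4 and 10 (12.2%, beside 10.0%), and with HMOX1si2 4 and 2 (5.22%, beside 5.73%). RUBCN, encoding Rubicon, an inhibitor of autophagosome maturation, had 22.4 and 35.1 CPM with HMOX1si1 and 33.5 and 30.8 CPM with HMOX1si2, against 11.4 and 11.0 CPM with siControl. It was the sole gene of the wider list called higher with each siRNA. The log2 fold changes of RUBCN were 1.36 with HMOX1si1 (SE 0.22, edgeR adjusted p = 0.0209) and 1.52 with HMOX1si2 (SE 0.22, edgeR adjusted p = 0.0243). TMEM192, a lysosomal membrane protein (0.64), ATG14, a subunit of the lipid kinase complex (0.45), and IGF2R, the mannose 6-phosphate receptor that sorts hydrolases (0.47), also rose on average. SORT1, the sorting receptor sortilin (−0.69), LGMN, the asparagine-specific protease legumain (−0.59), ATP6V1D, a pump subunit (−0.46), and VAMP8, a SNARE of autophagosome fusion (−0.57), fell on average. SORT1 had 9.30 and 9.10 CPM with HMOX1si1 and 14.7 and 15.7 CPM with HMOX1si2, against 19.4 and 18.7 CPM with siControl.

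Most genes just named for the average were called with 1 siRNA. TMEM192, ATG14, IGF2R, SORT1, ATP6V1D and VAMP8 were called with HMOX1si1 and not with HMOX1si2. LGMN was called with HMOX1si2 and not with HMOX1si1, where its log2 fold change was −0.44 (edgeR adjusted p = 0.0509). TMEM192 likewise just missed with HMOX1si2, at 0.54 (edgeR adjusted p = 0.0677). Of the genes named for 1 siRNA so far, SORT1 alone passed the direct test between the siRNAs. The other calls therefore do not show a difference between the siRNAs. Further genes of the wider list were also called with 1 siRNA. With HMOX1si1 LAPTM4A, a lysosomal transmembrane protein, had a log2 fold change of −0.67 and FUCA1, alpha-L-fucosidase, of −0.73, and both fell. With HMOX1si2 PPT1, a thioesterase that removes fatty acids from proteins (0.54), the pump subunit gene ATP6V1F (0.63) and FNIP2, a partner of folliculin (0.84), rose, while ARSB, arylsulfatase B (−0.71), and LGMN (−0.74) fell. LAPTM4A, FUCA1 and SORT1 were higher with HMOX1si2 than with HMOX1si1, by log2 differences of 0.69, 0.80 and 0.72 (edgeR adjusted p = 0.0180, 0.0190 and 0.0321), which is 2.61% of the list beside 3.62% of all tested genes. PPT1 shares 23.4% of its exonic bases with CAP1 and ATP6V1F 23.7% with KCP. Without siControl replicate 1 and without siControl replicate 2 edgeR called 0 of the 115 genes on average, with 34 and 22 at an unadjusted p under 0.05, and RUBCN had an adjusted p of 0.0922 and 0.138 there. RUBCN was also lost with HMOX1si1 without HMOX1si1 replicate 2 (edgeR adjusted p = 0.0600) and with HMOX1si2 without HMOX1si2 replicate 1 (0.0897). The wider list's count on average was 1 without HMOX1si1 replicate 1 or 2 and 3 without HMOX1si2 replicate 1. With HMOX1si1 its count was 1 and 0 without siControl replicates 1 and 2, and 1 and 0 without HMOX1si1 replicates 1 and 2.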

How the data were processed

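The authors deposited whole-number counts per Ensembl gene and library, with no normalization, and for the aligner and counter nothing is given in the sources used here. Mouse builds (GRCm38, mm10) stand in the submitters' processing notes although the gene identifiers are human, so coordinates come from GENCODE 29 (GRCh38) by gene identifier. Low counts are mostly even (71.9% of values from 1 to 10, 49.9% of those over 100), and if both mates of a fragment were counted, sampling noise is larger than the counts imply.

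Genes were kept by filterByExpr (13769 of 20263), scaled by TMM and fitted in R 4.3.3 with edgeR 4.0.16 (glmQLFit, glmQLFTest), with 1 mean per group over all 6 libraries. Adjusted p-values are Benjamini-Hochberg over all tested genes, with a threshold of 0.05. Standard errors (SE) were derived from the F statistic as the absolute log2 fold change over its root. The libraries of a group differed by more than sampling noise (chi-square per degree of freedom 50.1 for HMOX1si1, 87.3 for HMOX1si2 and 39.1 for siControl). Depth was 36144330 to 45068660 counts per library. Scripts were tested on simulated data. Alternatives were RLE size factors, library totals, no filter, DESeq2 1.42.0, a replicate block and leaving out each library.

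The members and lists were chosen with earlier results of these data known. Full values are given for HMOX1, members past the threshold and the 2 members per role with the smallest p on average, and of the wider list for at most 4 called genes per direction and contrast. Exonic overlap was taken from GENCODE 29, regardless of strand, and no strand setting is stated, so counts of overlapping genes are uncertain.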

Additional observations from a re-analysis of the deposited data

Results flagged for a closer look

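The response to the 2 siRNAs differed for 4 of the 39 tested genes, by a direct test of HMOX1si2 against HMOX1si1 in edgeR over all genes. PLA2G15 differed by 1.94 on the log2 scale, higher with HMOX1si2 in 2 of 2 libraries than in both HMOX1si1 libraries. GM2A differed by 0.90 and SQSTM1 by 0.53 in the same direction, again with libraries that did not overlap. CTSL differed by −0.76, lower in both HMOX1si2 libraries than in both HMOX1si1 libraries.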

How the results depend on the processing

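With RLE size factors, library totals or no filter, the counts of called genes stayed within 1.5 times those given, in both lists and all 4 contrasts. In the following, counts are for both siRNAs averaged, HMOX1si1, HMOX1si2 and the difference between the siRNAs, in this order. DESeq2 called 10, 8, 11 and 8 members in place of 5, 6, 5 and 4, and 28, 30, 10 and 18 genes of the wider list in place of 11, 14, 6 and 3. With the replicate block edgeR called 1, 0, 1 and 2 members (10, 8, 10 and 9 at an unadjusted p under 0.05) and 1, 4, 0 and 0 genes of the wider list (35, 41, 16 and 24). The members called with the block were PLA2G15 on average, with HMOX1si2 and in the difference, and GM2A in the difference; the calls of SQSTM1, WIPI2, CTSA, CTSB, CTSL, GLA and GAA and those of GM2A against siControl were not made. Over all tested genes, edgeR called 1389, 1381, 789 and 499, edgeR with the block 255, 481, 45 and 87, and DESeq2 2636, 2639, 1890 and 1411. Over all tested genes, same-numbered libraries did not deviate together (correlations of 0.0079, 0.027 and −0.15), and the labels state no pairing. Each correlation is a single value over all tested genes, so it cannot exclude a pairing that affects some of them. Whether the replicate block is the fitting model was therefore not settled. Leaving out 1 library at a time, edgeR called 0 to 5, 0 to 4, 0 to 2 and 0 to 3 members (8 to 16, 7 to 11, 7 to 16 and 8 to 9 at an unadjusted p under 0.05) and 0 to 9, 0 to 12, 0 to 2 and 0 to 1 genes of the wider list (22 to 43, 30 to 45, 11 to 26 and 19 to 30), while over all tested genes it called 0 to 1594, 0 to 1492, 0 to 362 and 19 to 204; DESeq2 was not run on these subsets. No fold change of a called gene named here changed sign under an alternative. Every tested member had at least 264 counts in each library.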
